A study of Mus musculus with 60 samples.

Results

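Dbp, Tef, Hlf and Nfil3 encode transcription factors through which the circadian clock reaches its output genes. Each gene is represented by the probeset that the platform annotation pairs with its symbol, and for Tef, which has more than 1 such probeset, by the one with the higher mean signal. They are 4 of the 18386 genes named by a probeset that passed the signal filter, and all 4 lay over the filter value on 59 of 59 arrays. The expression of each was described over 9 groups of mice.

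Dbp, Tef and Hlf are the PAR bZIP factors, which share a proline- and acid-rich region beside a basic leucine zipper and activate transcription from D-box sites. Nfil3, also called E4BP4, binds the same sites and represses. The core clock proteins CLOCK and BMAL1, which Arntl encodes, drive Dbp transcription through E-boxes, while Nfil3 is repressed by the nuclear receptors REV-ERB, so that in many tissues the activators and the repressor run in opposite phase.

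All mice were C57BL/6J males of 2 months of age, housed singly and handled for 6 days beforehand, and the left cortex of each was hybridized to 1 Affymetrix Mouse Gene 2.1 ST array. SD mice (n = 7) lost 6 h of sleep from lights on (zeitgeber time 0, ZT0), during which a soft brush kept them active, and were taken at ZT6. RS2 mice (n = 4) had 6 h of deprivation and 2 h of recovery sleep (ZT8), RS3 mice (n = 7) had 5 h and 3 h (ZT8), and RS6 mice (n = 7) had 5 h and 6 h (ZT11). The circadian controls CC0, CC6, CC7, CC8 and CC11 were left undisturbed and are named by the zeitgeber hour at which they were taken. CC7 held 6 mice and each of the other 4 control groups held 7. Sleep was not recorded in these mice. RS2 and RS3 differ in hours of deprivation as well as in hours of recovery, and both are set against CC8.

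The levels given are log2 values per probeset that the authors obtained by RMA, a method that corrects background, normalizes arrays and summarizes probes. The log2 fold changes come from limma, in a linear model with the 9 groups and 6 factors of unwanted variation (RUV, estimated from differences between replicates) over the 32819 probesets that passed the filter, and a gene is called at an FDR under 0.01. Between 78.1% and 81.1% of all probesets lay over the filter value on each array. The arrays of SD replicates 1 and 2, CC0 replicate 1, CC8 replicate 1 and RS6 replicate 1 stood apart from the other 54 on the first principal component, which held 26.9% of the variance, and their small nucleolar RNAs lay 0.47 to 1.31 above their group means (median over 99 probesets), against -0.35 to 0.24 on the other arrays. Excitatory and inhibitory neuron markers were well detected, as were those of glia and endothelium. The level of a gene on a bulk array does not separate fewer cells of a type from less RNA per cell.

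Stretches of 60 bases from before the annotated starts are shown because E-boxes and D-boxes are the sites that tie these genes to the clock and to each other. The sequences are from RefSeq (GRCm38.p6), on the strand of the gene, and all 4 genes were found there, Tef with 2 starts. Windows of 250 bases before and 50 bases after each start were searched on both strands for the E-box CACGTG and its variant CACGTT, the D-box TTATGTAA and its variant TTACGTAA, the CRE TGACGTCA and the ROR half-site AGGTCA. Capitals mark a match. The Dbp, Hlf and Nfil3 stretches end at the start used. The Tef stretches lie around the match, whose first base is 127 and 138 bases before the first and second start. The annotated Dbp gene begins at 45705100 and the annotated Nfil3 gene, on the reverse strand, at 52982878. The Dbp and Nfil3 stretches thus lie inside the annotated genes, and no window was set at those outer gene ends.
Dbp, chr7:45705187-45705246 (+): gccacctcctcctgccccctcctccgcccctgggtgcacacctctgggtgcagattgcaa
Tef, first start, chr15:81802519-81802578 (+): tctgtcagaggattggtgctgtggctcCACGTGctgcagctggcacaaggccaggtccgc
Tef, second start, chr15:81811249-81811308 (+): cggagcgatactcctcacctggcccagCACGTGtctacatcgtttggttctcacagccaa
Hlf, chr11:90390918-90390977 (-): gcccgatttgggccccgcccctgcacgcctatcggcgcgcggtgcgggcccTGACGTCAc
Nfil3, chr13:52981040-52981099 (-): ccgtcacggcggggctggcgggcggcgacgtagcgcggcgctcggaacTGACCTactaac

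Both Tef windows hold the E-box, which is found in 7.15% of 32851 promoter windows of this length. The Hlf window holds the CRE (1.79% of windows) just before the start, and the Nfil3 window holds the ROR half-site on the reverse strand, a short motif present in 16.3% of windows. No motif searched was found in the Dbp window. The E-box variant (4.68% of windows) and both D-box forms (0.938% and 0.119% of windows) were in none of the 5 windows. A match says only that the letters are there, and sites further from the start were not searched.

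In control mice the Dbp mean rose at each time sampled from ZT0 to ZT11, and the Tef mean did so with a smaller amplitude. Nfil3 was highest at lights on and Hlf stayed level. No controls were taken between ZT0 and ZT6, and the single steps among CC6, CC7, CC8 and CC11 were not tested. Over the 5 control times, 3 of the 4 genes were called by limma's moderated F test, against 0.896% of all probesets. Dbp ranked second of all probesets in this test (adjusted p = 8.59e-11), Nfil3 reached 1.15e-05 and Tef 3.34e-06, while Hlf was not called (0.834). The Tef call was lost without RUV (adjusted p = 0.0118) and with a second Tef probeset (0.521).

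Dbp had a lowest, median and highest log2 value of 8.99, 9.26 and 9.85 in CC0, 9.73, 9.99 and 10.03 in CC6, 9.93, 10.01 and 10.21 in CC7, 9.87, 10.21 and 10.44 in CC8, and 10.13, 10.22 and 10.51 in CC11. Every CC11 mouse lay above every CC6 mouse and every CC0 mouse, and 5 of 7 CC6 mice lay above all CC0 mice. Dbp averaged 9.93 ± 0.12 in CC6 and 9.28 ± 0.29 in CC0 (SD, n = 7 each). It rose by 0.61 (SE 0.08, limma adjusted p = 2.73e-05), the change with the second lowest p of all probesets, and it was the only one of the 4 genes called higher at ZT6, against 0.0335% of probesets called higher. None of the 4 was called lower, against 0.125% of probesets. The mean of 5 oligodendrocyte markers, which moved with Dbp within groups (r = 0.51 over 59 arrays), lay between 9.22 and 9.36 in CC6 and between 9.01 and 9.29 in CC0, with a median log2 fold change of 0.13 and none called. Their part in the Dbp result was not tested.

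Between ZT6 and ZT11 Dbp rose by a further 0.39 (SE 0.08, limma adjusted p = 0.00808), and it averaged 10.32 ± 0.17 in CC11. This call was lost without RUV (log2 fold change 0.39, adjusted p = 0.104) and when any one of CC6 replicates 1, 2, 3, 5, 6 and 7 or CC11 replicates 1, 5, 6 and 7 was left out (adjusted p from 0.0107 to 0.0273). It was lost as well with 3 or 9 factors, no filter, a striatum covariate or without the 5 arrays that stood apart (adjusted p from 0.0106 to 0.0363), and so was kept under 5 of 11 other settings. The striatum markers, a check on the dissection, had a median of 0.58 in this comparison, with none called. Across the whole interval CC11 stood 0.99 above CC0 (SE 0.08, a 1.99-fold level, limma adjusted p = 9.54e-12), and the highest adjusted p with any 1 mouse left out was 2.49e-10.

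Tef had a lowest, median and highest value of 7.24, 7.46 and 7.55 in CC0, 7.38, 7.59 and 7.64 in CC6, 7.39, 7.65 and 7.82 in CC7, 7.45, 7.62 and 8.05 in CC8, and 7.75, 7.82 and 7.91 in CC11. In RMA values the CC11 mice formed a tight group above all CC6 and CC0 mice, and the mice at ZT7 and ZT8 were spread widely. The highest CC8 value belongs to replicate 1, an array that stood apart. After RUV the SD of Tef was 0.093 in CC8, 0.127 in CC7 and 0.086 in CC11. Tef averaged 7.83 ± 0.06 in CC11, against 7.56 ± 0.09 in CC6 and 7.45 ± 0.10 in CC0 (SD, n = 7 each). It rose by 0.31 against CC6 (SE 0.05, limma adjusted p = 0.000301) and by 0.43 against CC0 (SE 0.05, 2.86e-07). With Dbp this made 2 of 4 genes called higher in each of these comparisons, against 0.116% of probesets for CC11 over CC6 and 0.344% for CC11 over CC0. For CC6 against CC0 the Tef difference was 0.12 (95% interval 0.02 to 0.22, limma adjusted p = 0.392).

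Without RUV, Tef remained called for CC11 against CC0 (0.38, limma adjusted p = 0.000774) but not for CC11 against CC6 (0.27, 0.172). The mean of the 7 striatum markers lay between 8.63 and 9.46 in CC11, between 8.03 and 9.27 in CC6 and between 8.11 and 9.26 in CC0, and it moved with Tef within groups (r = 0.43 over 59 arrays, a description). None of these markers was called in either comparison. With their mean as a covariate, an alternative chosen after seeing the data, Tef stood 0.28 above CC6 (adjusted p = 0.00609) and 0.41 above CC0 (3.64e-06). A second Tef probeset (17319524) followed the first poorly (r = 0.09 over 59 arrays). It averaged 6.57 ± 0.22 in CC11, against 6.41 ± 0.14 in CC6 and 6.24 ± 0.39 in CC0, and was not called in any comparison, so the Tef calls rest on probeset 17313376.

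Nfil3 ran the other way. Its lowest, median and highest values were 6.45, 6.69 and 7.17 in CC0, 6.17, 6.35 and 6.46 in CC6, 5.87, 6.10 and 6.30 in CC7, 5.63, 6.02 and 6.31 in CC8, and 5.91, 6.09 and 6.33 in CC11. All CC11 mice lay below all CC0 mice, and CC8 held the lowest mean of the 9 groups (5.99 ± 0.23). In CC11, Nfil3 averaged 6.13 ± 0.15, against 6.72 ± 0.24 in CC0 (SD, n = 7 each).

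It fell by 0.44 in CC11 against CC0 (SE 0.08, limma adjusted p = 0.000977), the only one of the 4 genes called lower there, against 0.631% of probesets. The difference was -0.35 for CC6 against CC0 (95% interval -0.51 to -0.18, limma adjusted p = 0.0347) and -0.09 for CC11 against CC6 (-0.25 to 0.07, 0.665), and none of the 4 genes was called lower in CC11 against CC6, where 0.149% of probesets were. The CC0 mouse with the highest Nfil3 (replicate 1, 7.17) is one of the arrays that stood apart. Without those 5 arrays the fall in CC11 was 0.47 (adjusted p = 0.00118). Of 6 endothelial markers, 3 were called lower in CC11 against CC0 (median -0.26 in the model with RUV). The level of their mean lay between 7.92 and 8.15 in CC11 and between 6.94 and 8.23 in CC0, and averaged 8.04 in both groups. Within groups Nfil3 moved against this mean (r = -0.66 over 59 arrays). This value includes the 5 arrays that stood apart, and how far it rests on them was not tested. Of 5 excitatory neuron markers, 1 was called lower (median -0.09). Their part in the Nfil3 result was not tested.

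Hlf varied least. Its group means ran from 8.75 ± 0.16 in CC0 to 8.87 ± 0.07 in RS6, a range of 0.12 on the log2 scale over all 9 groups, beside a median within-group SD of 0.10. The CC11 mice spanned 8.72 to 9.01 and the CC0 mice 8.46 to 8.97, and 6 of 7 CC11 mice lay within the CC0 range. The CC11 to CC0 difference was 0.08 (95% interval -0.03 to 0.19, limma adjusted p = 0.518). In the same terms the 9 group means spanned 1.04 for Dbp, 0.40 for Tef and 0.94 for Nfil3, the last with the SD group at the top.

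**Figure D1:**
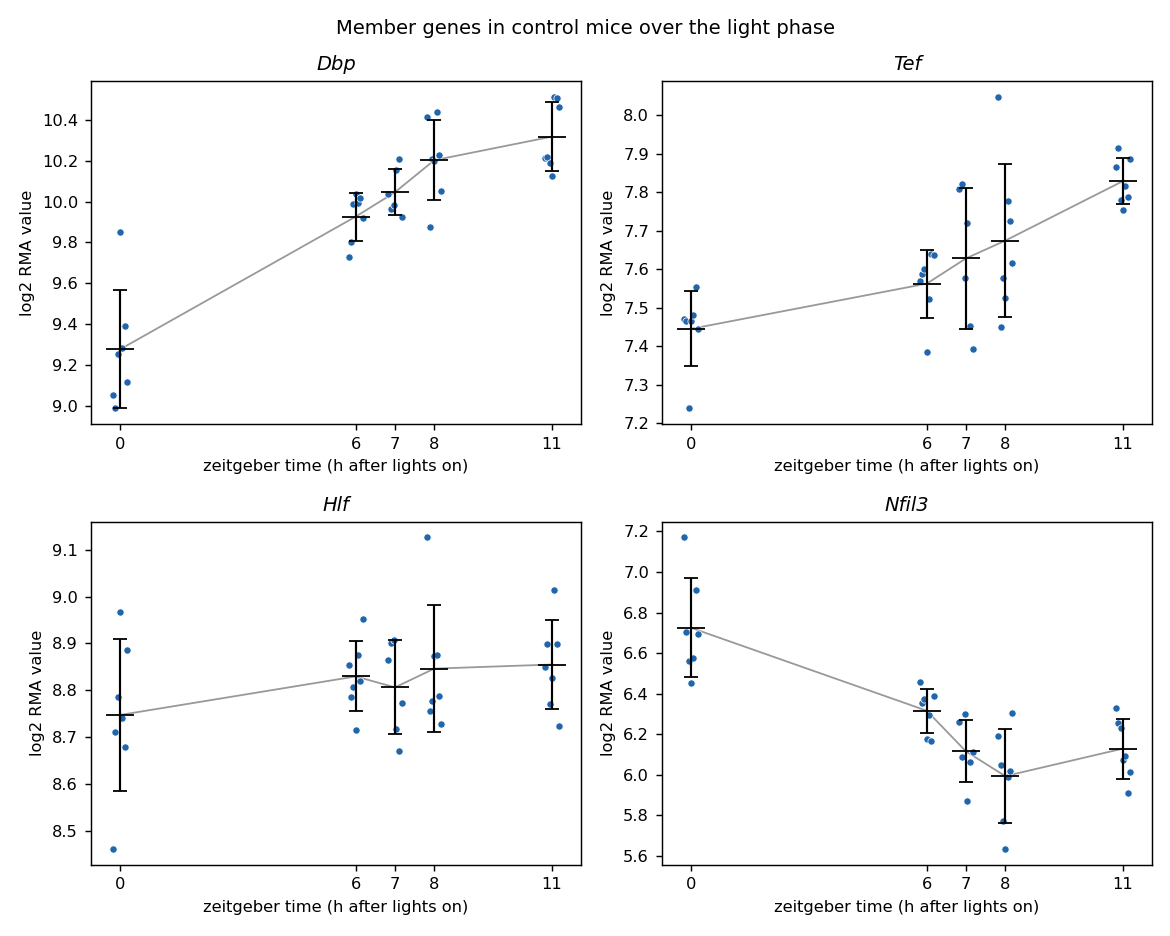
log2 RMA values of Dbp, Tef, Hlf and Nfil3 (y axes) in control mice against zeitgeber time in hours (x axis). Points are mice, bars the mean and SD, and grey lines join the means. Dbp averaged 9.28 at ZT0 and 10.32 at ZT11, Nfil3 averaged 6.72 and 6.13, and Hlf stayed within 0.11 between its group means.

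After 6 h of sleep deprivation Dbp was lower and Nfil3 higher than in time-matched controls, and neither Tef nor Hlf was called. Thus 1 of 4 genes was called lower, against 0.844% of probesets, and 1 of 4 higher, against 1.09%.

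Dbp values in the 7 SD mice ran from 9.39 through a median of 9.57 to 9.79, against 9.73, 9.99 and 10.03 in CC6. The lowest CC6 mouse was above 6 of the 7 SD mice, and above all 7 after RUV. RUV takes out spread within groups (median SD of Dbp 0.15 before and 0.12 after). Counts of mice after RUV, here and below, are thus no independent support. Dbp averaged 9.58 ± 0.13 in SD and 9.93 ± 0.12 in CC6 (SD, n = 7 each). It fell by 0.40 on the log2 scale (SE 0.08, a 0.76-fold level, limma adjusted p = 0.00200). The call held with any single mouse left out (adjusted p at most 0.00976) and without the 5 arrays that stood apart (-0.38, 0.00506), but not without RUV (-0.35, 0.0216). Markers of oligodendrocytes were also a little lower in SD mice (mean of 5 markers 8.96 to 9.22, against 9.22 to 9.36 in CC6, 1 of 5 called lower), and their part in the fall of Dbp was not tested.

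Nfil3 had values of 6.45, 6.84 and 7.86 (lowest, median and highest) in SD mice, against 6.17, 6.35 and 6.46 in CC6 mice. The highest SD value belongs to replicate 1, an array that stood apart, and the other 6 ran from 6.45 to 6.98. In 6 of 7 SD mice Nfil3 lay above all CC6 mice, and in 7 of 7 after RUV. Nfil3 averaged 6.93 ± 0.44 in SD and 6.32 ± 0.11 in CC6 (SD, n = 7 each).

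It rose by 0.41 (SE 0.09, a 1.33-fold level, limma adjusted p = 0.00155). Without RUV the rise was 0.62 (adjusted p = 0.00104), and without the 5 arrays it was 0.42 (0.00299). Within groups Nfil3 moved against the astrocyte markers too (r = -0.62 over 59 arrays, the 5 that stood apart included). The mean of 6 endothelial markers lay between 6.90 and 8.31 in SD mice, against 8.10 to 8.28 in CC6, and that of 6 astrocyte markers between 8.36 and 9.22, against 8.88 to 9.18, with 0 of 6 and 1 of 6 markers called (the one higher). The lowest of both means in SD belongs to replicate 1, one of the 5 arrays, and the part of these markers in the rise was not tested.

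Tef averaged 7.50 ± 0.11 in SD and 7.56 ± 0.09 in CC6, with 6 of 7 SD mice at or under the highest CC6 mouse. In 1 of 7 SD mice Tef lay below all CC6 mice, and in 5 of 7 after RUV. The Tef difference was -0.13 (95% interval -0.24 to -0.03, limma adjusted p = 0.151). Hlf averaged 8.80 ± 0.13 in SD and 8.83 ± 0.07 in CC6, and its difference was -0.02 (-0.13 to 0.09, 0.894).

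**Figure D2:**
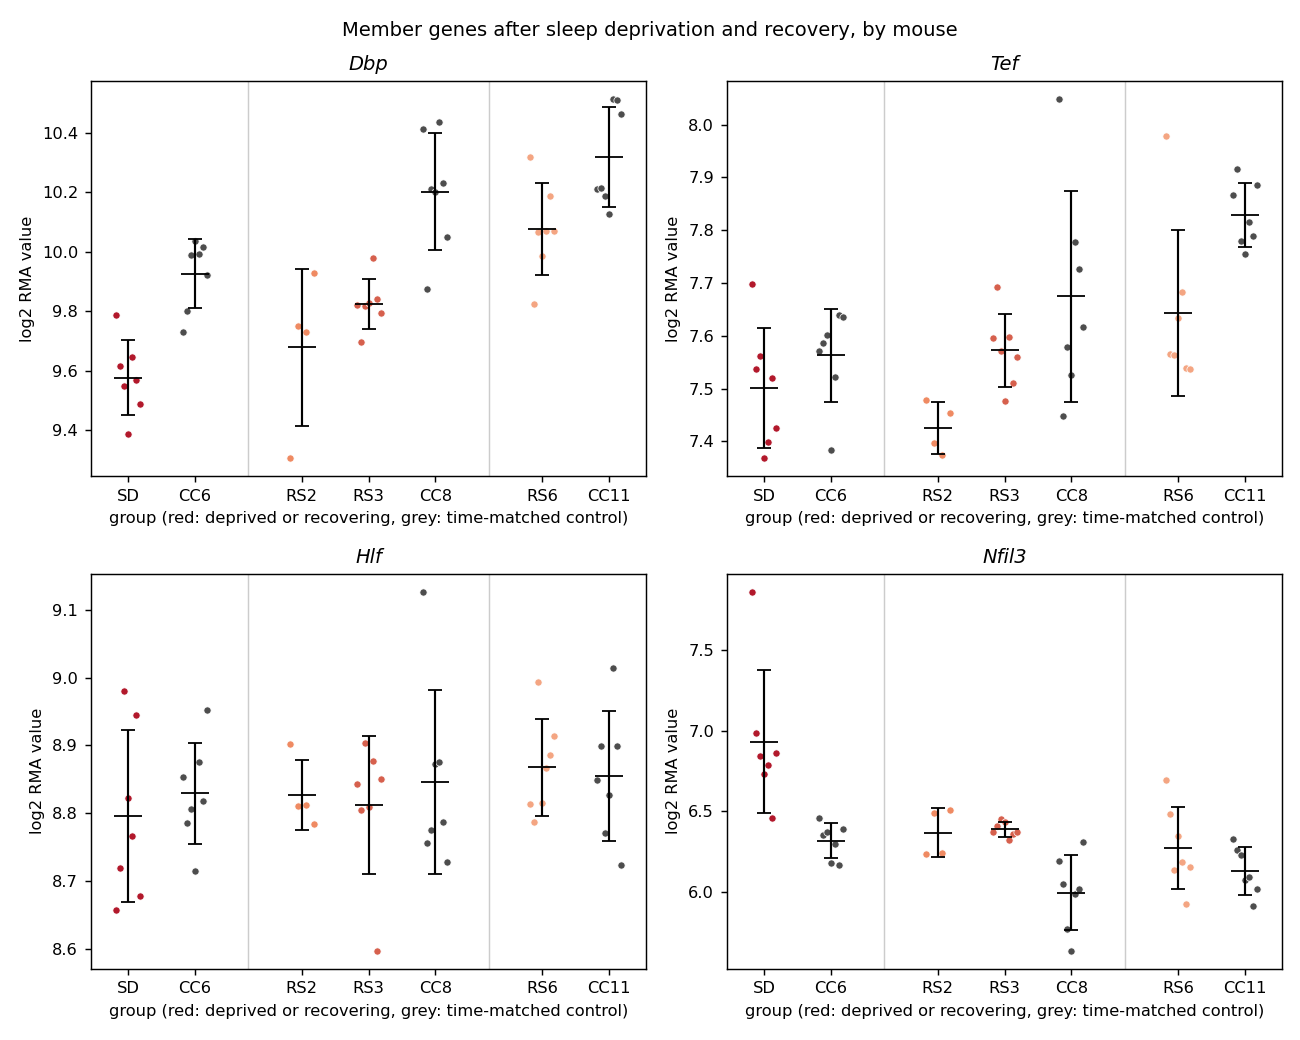
log2 RMA values (y axes) of the 4 genes by group (x axes), with deprived or recovering mice (red tones) left of their time-matched controls (grey). Points are mice, and bars give the mean and SD. For Dbp, 6 of 7 SD mice lay under the lowest CC6 mouse, and Nfil3 lay above every CC8 mouse in 7 of 7 RS3 mice.

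Deprived mice were also set against mice collected at the start of deprivation. Time of day and wakefulness both differ in this comparison and cannot be told apart. None of the 4 genes was called by limma in SD against CC0, where 0.174% of all probesets were. An unadjusted p under 0.05 was found for 1 of 4 (Dbp), beside 3381 of all 32819 probesets. Dbp averaged 9.58 ± 0.13 in SD and 9.28 ± 0.29 in CC0, a difference of 0.21 after RUV (95% interval 0.04 to 0.38, limma adjusted p = 0.353), beside the rise of 0.61 in undisturbed mice over the same 6 h. Nfil3 differed by 0.06 (-0.11 to 0.24, 0.878) and Tef by -0.01 (-0.12 to 0.09, 0.970). In the order of the group means, CC0 and SD were next to each other at the low end for Dbp and at the high end for Nfil3.

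In recovering mice the Dbp mean was under that of the controls at each time, and only the RS2 difference was called. The RS2 mice had Dbp values of 9.31, 9.75, 9.73 and 9.93, against 9.87, 10.21 and 10.44 (lowest, median and highest) in CC8. In 3 of 4 RS2 mice it lay below every CC8 mouse, and in 4 of 4 after RUV. It averaged 9.68 ± 0.26 in RS2 (n = 4) and 10.20 ± 0.20 in CC8 (n = 7).

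Dbp fell by 0.48 (SE 0.09, a 0.72-fold level, limma adjusted p = 0.00331), the only one of the 4 genes called lower in RS2, against 0.067% of probesets, and none of the 4 was called higher, against 0.232%. Leaving out RS2 replicate 1 ended this call (-0.37, adjusted p = 0.0789), as did leaving out replicate 2 (-0.51, 0.0107), replicate 3 (-0.49, 0.0106), CC8 replicate 5 (-0.45, 0.0115), the 5 arrays that stood apart (-0.44, 0.0106) or RUV (-0.52, 0.0446). The median of the striatum markers was -0.54 in RS2 against CC8, with no marker called, and with their mean as a covariate Dbp stood at -0.52 (0.00325).

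Dbp averaged 9.82 ± 0.08 in RS3, where 6 of 7 mice lay below all CC8 mice, and its difference was -0.35 (95% interval -0.51 to -0.19, limma adjusted p = 0.0194). In RS6 it averaged 10.07 ± 0.15, against 10.32 ± 0.17 in CC11, with 5 of 7 mice below all controls and a difference of -0.27 (-0.44 to -0.11, 0.0804). The distance from the time-matched control was thus -0.40, -0.48, -0.35 and -0.27 in SD, RS2, RS3 and RS6, and none of the recovery differences was called as unlike that in SD. The RS2, RS3 and RS6 differences minus the SD difference were -0.09 (-0.34 to 0.17), 0.04 (-0.19 to 0.28) and 0.12 (-0.11 to 0.35).

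Nfil3 was called higher after 3 h of recovery. Its values in RS3 were 6.32, 6.37 and 6.45 (lowest, median and highest), against 5.63, 6.02 and 6.31 in CC8. Every RS3 mouse lay above every CC8 mouse in the RMA values, and 3 of 7 did after RUV. It averaged 6.39 ± 0.05 in RS3 and 5.99 ± 0.23 in CC8 (SD, n = 7 each).

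Nfil3 rose by 0.41 in RS3 (SE 0.08, a 1.33-fold level, limma adjusted p = 0.00515). It was the only one of the 4 genes called higher, against 0.11% of probesets, and none was called lower, against 0.0609%. Without RUV the difference kept its size (0.39, adjusted p = 0.523) but not its call. The call was also lost without any one of RS3 replicates 1, 3, 4, 6 and 7 or CC8 replicates 1, 3, 4 and 5 (adjusted p from 0.0101 to 0.0190) and without the 5 arrays that stood apart (0.40, 0.0159).

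The 4 RS2 mice had Nfil3 values of 6.23, 6.49, 6.24 and 6.50, of which 2 lay above all CC8 mice, and the difference was 0.38 (95% interval 0.20 to 0.57, limma adjusted p = 0.0326). It was called when CC8 replicate 7, the control with the highest Nfil3, was left out (0.45, 0.00431). This was the only call in 11 fits with 1 mouse left out, where the limma adjusted p reached 0.159. Under 11 other settings it was called in 0, with an adjusted p of 0.900 without RUV. In RS6 the values were 5.93, 6.18 and 6.69, against 5.91, 6.09 and 6.33 in CC11, and 3 of 7 RS6 mice lay above all CC11 mice. The difference was 0.07 (-0.09 to 0.24, 0.761).

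None of the 4 genes was called by limma in RS6 against CC11, where 0.149% of probesets were. An unadjusted p under 0.05 was found for 2 of 4 (Dbp and Tef), beside 4640 of all 32819 probesets. The Nfil3 effect in RS6 minus that in SD was -0.34 (95% interval -0.57 to -0.11, unadjusted p = 0.00536, limma adjusted p = 0.111), and in RS3 minus SD it was 0.00 (-0.24 to 0.24). No member was called in any difference between a recovery effect and the SD effect, where 0.0518% (RS2), 0.207% (RS3) and 1.03% (RS6) of probesets were.

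Tef values in the RS2 mice were 7.48, 7.40, 7.37 and 7.45, against 7.45, 7.62 and 8.05 (lowest, median and highest) in CC8. In 2 of 4 RS2 mice Tef lay below all CC8 mice, and in 4 of 4 after RUV. The difference was -0.25 (95% interval -0.36 to -0.13, limma adjusted p = 0.0232), and it was called when CC8 replicate 2 was left out (-0.28, 0.00721). This was the only call in 11 fits with 1 mouse left out, where the limma adjusted p reached 0.165. Under 11 other settings of the same probeset it was called in 2, with an adjusted p of 0.596 without RUV. In RS6 the difference was -0.22 (-0.33 to -0.12, 0.0199), with 6 of 7 mice below all CC11 mice and replicate 1, an array that stood apart, above them. It was -0.11 in RS3 (-0.21 to -0.01, 0.341). The second Tef probeset gave 0.04 in RS2 against CC8.

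Hlf lay within 0.05 of its controls in RS2, RS3 and RS6, with differences of -0.03 (95% interval -0.15 to 0.10), -0.05 (-0.15 to 0.06) and 0.00 (-0.11 to 0.11). Its recovering and control mice overlapped in all 3 comparisons.

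**Figure D3:**
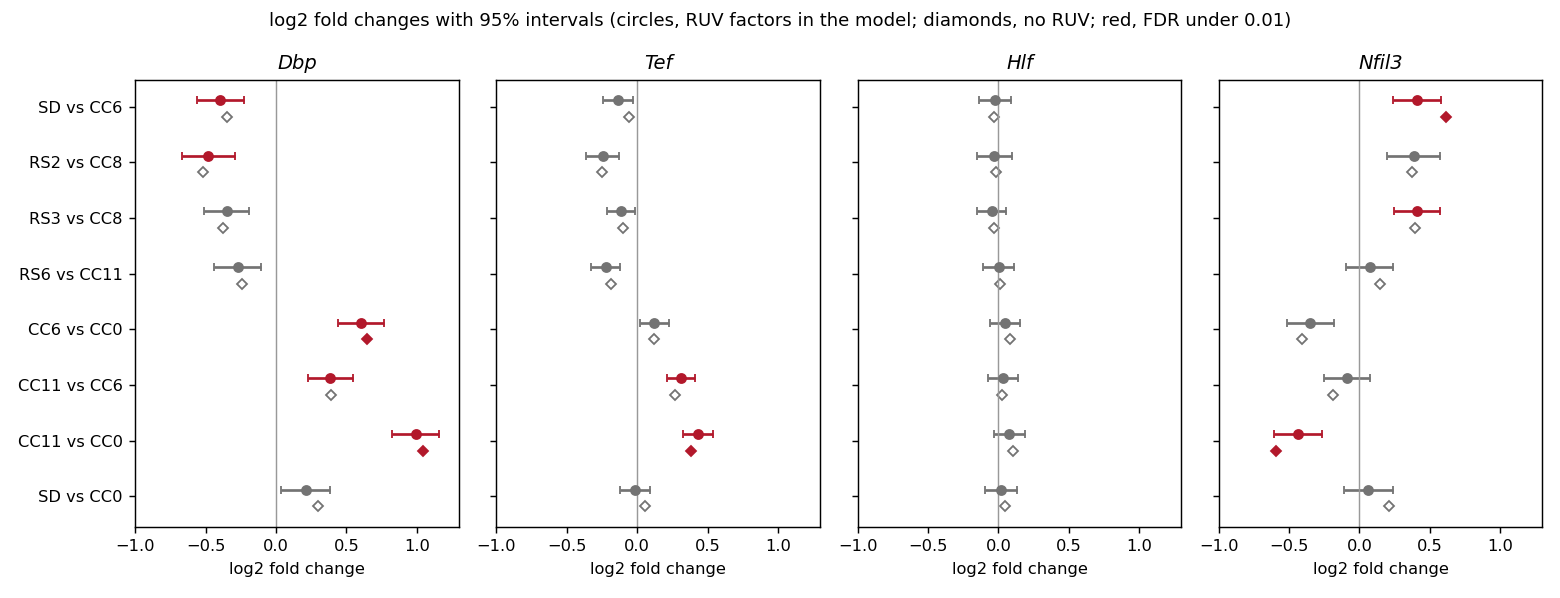
log2 fold changes (x axes) of the 4 genes in 8 comparisons (rows). Circles with 95% intervals come from the model with RUV factors and diamonds from the model without, and red marks an FDR under 0.01. Dbp was called in SD (-0.40) and RS2 (-0.48) with RUV only, while Nfil3 in SD was called both ways.

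Set in order of their means, the groups showed the same opposition. For Dbp the order from the lowest was CC0, SD, RS2, RS3, CC6, CC7, RS6, CC8 and CC11. Neighbours differed by more than the larger of their SDs only between CC0 and SD and between CC6 and CC7. For Nfil3 it was CC8, CC7, CC11, RS6, CC6, RS2, RS3, CC0 and SD, and only RS3 and CC0 differed by more than their larger SD.

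Tef ran from RS2 through CC0, SD, CC6, RS3, CC7, RS6 and CC8 to CC11, and Hlf from CC0 to RS6, with no neighbours apart by that measure. Over the 9 group means after RUV, Dbp correlated with Tef at r = 0.92, with Hlf at 0.90 and with Nfil3 at -0.88. The Hlf means spanned only 0.080 there, beside a median within-group SD of 0.084. The Hlf value thus rests on differences smaller than the spread among mice. Among mice of the same group the relations were weaker, at r = 0.29, 0.41 and -0.33 over 59 arrays, and in RMA values at 0.28, 0.21 and -0.07. These are descriptions, and the first share the RUV factors as well as the arrays.

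Over the 59 arrays, in values adjusted by RUV and among 18385 other genes, the profiles most like that of Dbp were those of Ciart (r = 0.91), a repressor of CLOCK and BMAL1, Mthfd1l (0.82), a mitochondrial folate enzyme, and Usp2 (0.81), a deubiquitinase. The most opposite was that of Arntl (-0.91). Tef was most like Dbp (0.79), the histamine receptor Hrh3 (0.79) and Ciart (0.78) and most opposite to Arntl (-0.82). Nfil3 was most like Hspa5 (0.76), a chaperone of the endoplasmic reticulum, Hexim1 (0.76), an inhibitor of transcription elongation, and Pdp1 (0.75), a phosphatase of pyruvate dehydrogenase, and of all genes its most opposite was Dbp (-0.77).

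Hlf had no close counterpart. Its highest values were 0.57 with Acox3, a peroxisomal oxidase, and 0.55 with both Coro2a, an actin-binding protein, and Kcnh3, a potassium channel, and its lowest was -0.58 with Sox11, a transcription factor of immature neurons. In RMA values the correlations were 0.31 with Acox3, 0.32 with Coro2a, 0.03 with Kcnh3 and -0.54 with Sox11. Over the 9 group means after RUV, Coro2a ran the other way (r = -0.24). The others stood at 0.79 (Acox3), 0.65 (Kcnh3) and -0.63 (Sox11).

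Of 20 core clock genes listed, 16 had a probeset that passed the filter under their symbol alone. Over the control times 7 of the 16 were called in the F test, against 0.896% of all probesets, and 6 without RUV. Arntl fell by 0.59 in CC11 against CC0 (SE 0.05, limma adjusted p = 7.94e-12) and Ciart rose by 1.35 (SE 0.11, 7.94e-12), and these 2 and Dbp held the 3 lowest p-values in that comparison. Per3, a period gene, rose by 0.47 (SE 0.05, 1.43e-07), and Bhlhe41, a repressor at E-boxes, by 0.42 (SE 0.07, 0.000234). Nr1d1, the gene of REV-ERB alpha, rose by 0.35 (SE 0.07, 0.00292), and Npas2, a relative of Clock, fell by 0.17 (SE 0.04, 0.00840). Thus 4 of the 16 were called higher, against 0.344% of probesets, and 2 lower, against 0.631%. Without RUV 3 were called higher and 1 lower, and the calls of Nr1d1 and Npas2 were lost (adjusted p = 0.0172 and 0.182).

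After sleep deprivation, 3 of the 16 were called higher, against 1.09% of probesets, and none lower, against 0.844%. Per1 rose by 0.40 (SE 0.07, limma adjusted p = 0.000352), Bhlhe40 by 0.51 (SE 0.06, 3.27e-07) and Npas2, a partner of BMAL1, by 0.17 (SE 0.04, 0.00745), and without RUV the call of Npas2 was lost (adjusted p = 0.0474). Ciart differed by -0.23 (SE 0.11, 0.319), Arntl by 0.16 (SE 0.05, 0.0432) and Nr1d1, which encodes REV-ERB alpha, by -0.12 (SE 0.07, 0.457). The median of the 16 was 0.02, beside 0.00 for all probesets. That of the 4 output genes was -0.08, but it joins a fall of Dbp and a rise of Nfil3 and describes no common change.

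In RS2, Arntl rose by 0.25 (SE 0.05, limma adjusted p = 0.00934) and Npas2 by 0.23 (SE 0.04, 0.00346), and Per1 fell by 0.46 (SE 0.08, 0.00129), against 0.232% of probesets called higher and 0.067% lower, and none of these 3 was called without RUV. In RS3 only Bhlhe40 was called, falling by 0.41 (SE 0.06, 8.03e-05). In RS6 none was, and 8 of 16 had an unadjusted p under 0.05, beside 4640 of all 32819 probesets. The Per1 and Bhlhe40 effects in RS6 were below those in SD by 0.63 (SE 0.10, 0.000105) and 0.75 (SE 0.09, 2.57e-07) in the test of the difference. Both were also called by limma in RS2 minus SD (Per1 -0.86 and Bhlhe40 -0.72, both at an adjusted p of 7.20e-06). The same held in RS3 minus SD (Per1 -0.73, 3.77e-05, and Bhlhe40 -0.91, 2.55e-09). Without RUV the Per1 call was lost in RS6 minus SD (adjusted p = 0.0145).

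Genes listed as D-box outputs of the PAR bZIP factors were followed as well. Pdxk, which makes the active form of vitamin B6, Alas1, Nr1i3 and Ppara (4 of 5 listed genes measured) were not called by limma in any comparison, with 0 of 44 unadjusted p-values under 0.05, and Pdxk differed by 0.02 in SD against CC6 (SE 0.06, limma adjusted p = 0.932). The 5 members of the related C/EBP family listed, all measured, were not called either, with 1 of 55 unadjusted p-values under 0.05. Their median was 0.06 in SD against CC6.

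**Figure D4:**
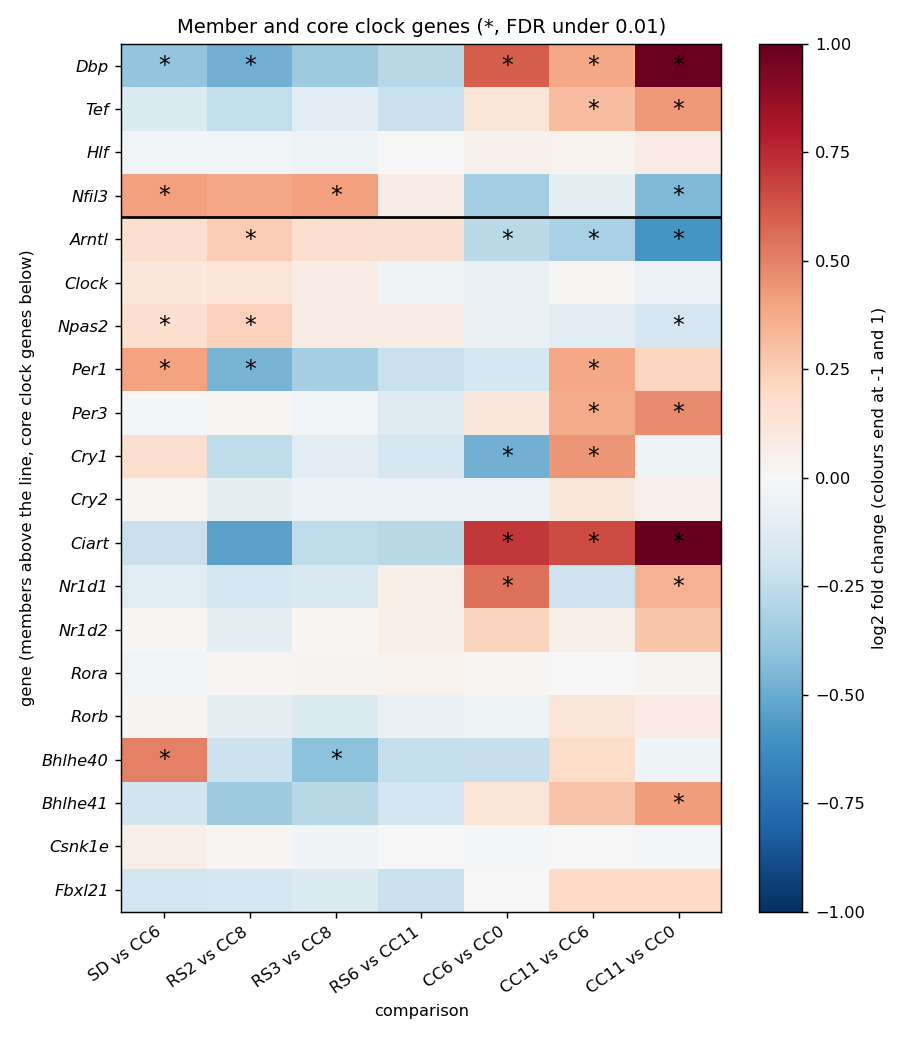
log2 fold changes (colour) of the 4 output genes, above the line, and 16 core clock genes, below it (rows), in 7 comparisons (columns). Asterisks mark an FDR under 0.01, and colours end at -1 and 1. Dbp and Ciart share the strongest red in CC11 vs CC0 (0.99 and 1.35), and Dbp and Nfil3 have opposite colours in every column.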

How the data were processed

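Cortical RNA of 59 mice was analysed in 9 groups, with 1 array per mouse. The deposited values are log2 probeset values that the authors obtained by RMA (version not given in the sources used here), and no source says whether RUV was applied to them too. A further array, whose labels disagree on its recovery time, was not used. Probesets over a log2 value of 4 in more than 50% of arrays were kept (32819 of 41345), of which 19494 had 1 symbol, 1445 several and 11880 none in the platform annotation. RUVs was written out in R 4.3.3 with 6 factors taken from the differences among replicates of a group at every kept probeset, so the group labels enter the factors. limma 3.58.1 was fitted to the 59 arrays with groups and factors, with Benjamini-Hochberg adjustment over all kept probesets, and was tested on simulated data. Intervals are 95%. The number of arrays sets the precision.

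The genes, lists and comparisons were chosen with earlier results of these data known. The genes named are the 4 members, for each the 3 genes with the highest and the 1 with the lowest correlation, and listed genes past the threshold or needed beside a member. The protocol was repeated daily with 1 mouse per time point, but no source ties the replicate numbers to days, and deviations of same-numbered arrays from their group means correlated at -0.12 to 0.21, so the numbers were not taken as pairs. No arrays were identical. Alternatives were no RUV, 3 or 9 factors, factors subtracted, no filter, a filter at 6, a second quantile normalization, array weights, the replicate number as a block, another probeset, leaving out 5 arrays and leaving out each RS2 mouse. Leaving out each other mouse and a striatum covariate were added after seeing the data. Another background correction could not be tried on summarized values.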

Additional observations from a re-analysis of the deposited data

Results flagged for a closer look

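Over 36 tests (4 genes in 9 groups), 5 mice lay far from the others of their group by Dixon's criterion, which chance meets in about 5% of groups. Nfil3 was 7.86 in SD replicate 1, while the other SD mice had at most 6.98. Tef was 7.98 in RS6 replicate 1, while the others had at most 7.68, and 7.24 in CC0 replicate 3, while the others had at least 7.44. Hlf was 9.13 in CC8 replicate 1 and 8.60 in RS3 replicate 6. Of these, SD replicate 1, RS6 replicate 1 and CC8 replicate 1 are among the 5 arrays that stood apart on the first principal component. After RUV their values were 6.77, 7.63 and 9.08. No difference between a recovery effect and the SD effect passed the threshold for these genes.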

How the results depend on the processing

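Dbp in CC6 against CC0 and in CC11 against CC0, Tef and Nfil3 in CC11 against CC0, Nfil3 in SD against CC6 and the F tests of Dbp and Nfil3 were called under all 11 other settings of the same probeset and with any 1 mouse left out. The number of mice, 4 in RS2, limits these comparisons.

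Without RUV the calls of Dbp in SD (-0.35), RS2 (-0.52) and CC11 against CC6 (0.39), of Tef in CC11 against CC6 (0.27) and in the F test (adjusted p = 0.0118) and of Nfil3 in RS3 (0.39) were lost. Dbp in CC11 against CC6 was also lost with 3 factors (0.42), 9 factors (0.36), no filter (0.39), the 5 arrays left out (0.32) and the striatum covariate (0.43), and leaving out those 5 arrays also ended the calls of Dbp in RS2 (-0.44) and of Nfil3 in RS3 (0.40). With the factors subtracted, Dbp in RS3 (-0.35), Tef in RS2 (-0.25) and RS6 (-0.22) and Nfil3 in CC6 against CC0 (-0.35) were called as well, and with array weights Tef in RS2 (-0.23). The second Tef probeset gave 0.14 in CC11 against CC6, 0.23 in CC11 against CC0 and an F test at an adjusted p of 0.521, and its sign was turned in RS2 (0.042), in SD against CC0 (0.053) and in RS2 minus SD (0.081). The causes of the other changes were not tested.

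No called difference changed sign. Of differences near 0, Nfil3 in RS3 minus SD was -0.22 without RUV, -0.0083 and -0.0033 with 3 and 9 factors, -0.024 after a second quantile normalization, -0.00055 with array weights and -0.011 without the 5 arrays. Tef in SD against CC0 was 0.056 without RUV, 0.00019 with 9 factors, 0.056 with array weights, 0.023 without the 5 arrays and 0.0066 with the striatum covariate. Hlf in RS2 minus SD was 0.015 without RUV, 0.0045 with 3 factors and 0.017 without the 5 arrays, in RS3 minus SD 0.00013 without RUV and 0.0011 without the 5 arrays, and in RS2 0.012 without them. Hlf in RS6 was -0.015 with the stricter filter, -0.0031 after a second quantile normalization and -0.017 with the striatum covariate. Dbp and Tef in RS3 minus SD were -0.028 and -0.041 without RUV.

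With the replicate number as a block, no call of these genes changed (Dbp in SD -0.45, Nfil3 in SD 0.45), and the signs of Hlf in RS2 minus SD (0.017) and Nfil3 in RS3 minus SD (-0.027) turned.

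With 1 mouse left out, Dbp lay between 0.35 and 0.43 in CC11 against CC6, -0.56 and -0.37 in RS2, -0.40 and -0.31 in RS3 and -0.16 and 0.038 in RS2 minus SD. Nfil3 lay between 0.36 and 0.47 in RS3, 0.32 and 0.45 in RS2, -0.057 and 0.073 in RS3 minus SD and -0.085 and 0.047 in RS2 minus SD. Tef lay between -0.28 and -0.21 in RS2, -0.048 and 0.0046 in SD against CC0 and -0.0074 and 0.056 in RS3 minus SD. Hlf lay between -0.050 and 0.0079 in SD, -0.050 and 0.025 in RS2, -0.065 and 0.0097 in RS3, -0.020 and 0.031 in RS6, -0.0041 and 0.059 in SD against CC0, and -0.038 and 0.036, -0.057 and 0.020, and -0.0028 and 0.053 in RS2, RS3 and RS6 minus SD.

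Counts over all probesets, with those without RUV and with subtracted factors in parentheses, were 634 (423 and 1228) in SD, 98 (5 and 171) in RS2, 56 (5 and 157) in RS3, 49 (0 and 293) in RS6, 52 (18 and 106) in CC6 against CC0, 87 (6 and 339) in CC11 against CC6, 320 (127 and 748) in CC11 against CC0, 57 (48 and 256) in SD against CC0, 17 (12 and 50), 68 (34 and 186) and 338 (41 and 667) in RS2, RS3 and RS6 minus SD and 294 (73 and 888) in the F test. For SD against CC0 and RS2 minus SD the lowest counts were 32, with the striatum covariate, and 11, with the replicate block. With 1 mouse left out the counts ran from 492 to 635 in SD, 26 to 104 in RS2, 24 to 63 in RS3, 13 to 103 in RS6, 18 to 90 in CC6 against CC0, 35 to 246 in CC11 against CC6, 201 to 444 in CC11 against CC0, 25 to 70 in SD against CC0 and 176 to 415 in the F test, so the shares of all probesets called move with single mice. Of the 16 core clock genes, 5 were called in CC11 against CC6 with RUV and 2 without, and 3 in RS2 with RUV and 0 without. In RS2 without RUV, 8 of the 16 had an unadjusted p under 0.05, beside 1459 of all 32819 probesets. By limma without RUV, 3477 probesets in RS6 had an unadjusted p under 0.05.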
